A study of Mus musculus with 17 samples.

Results

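A group of 10 transcription factors that set and keep the identity of pancreatic β cells was followed across 17 libraries of mouse islet RNA. The genes are *Mafa*, *Nkx6-1*, *Pdx1*, *Pax4*, *Pax6*, *Nkx2-2*, *Neurod1*, *Isl1*, *Rfx6* and *Insm1*. They were chosen by name, with earlier results of these data known. Each was found by its Ensembl identifier among the 78239 identifiers of a first table of 12 libraries and the 73212 of a second table of 5. All mice were male, each library came from isolated pancreatic islets of 1 labelled biological replicate, and each table was normalized on its own. Whether a library holds the islets of 1 animal or of several pooled animals is not given in the sources used here, so n counts libraries. The first table held 3 libraries of wildtype and 3 of homozygous *Pax4* R192H mice (labelled HH), aged 12 weeks on a standard chow diet (SCD), and 3 of each genotype aged 16 weeks after 4 weeks of high-fat diet (HFD). The mouse allele is R200H and stands for the human R192H variant. In the second table, all mice were 20 weeks old after 8 weeks of HFD. The 3 *Pax4* βiKO libraries came from mice with floxed *Pax4* and the tamoxifen-induced *Pdx1*-CreERT2, and the 2 control libraries from mice that carried floxed *Pax4* without Cre and were also given tamoxifen. Both groups were given tamoxifen at 7 to 9 weeks of age, before the HFD. Diet and age cannot be told apart in the first table, nor can loss of *Pax4* and presence of Cre in the second. The Cre is driven by the promoter of *Pdx1*, itself 1 of the 10 genes.

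These factors act in layers. *Pdx1* is needed for the pancreas to form and later binds the insulin gene, and *Neurod1*, *Nkx2-2*, *Isl1*, *Pax6*, *Rfx6* and *Insm1* are switched on in endocrine progenitors and stay active in most or all islet cell types. *Pax4* favours the β and δ cell fates over the α cell fate during development and is low in adult islets. *Nkx6-1* keeps β cells from taking on α-cell features, and *Mafa* marks the mature β cell, where it drives insulin and genes of glucose sensing.

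The changed codon and the part of these proteins that reads DNA are shown first, because the first comparison turns on them. In the reference transcript ENSMUST00000031718 (GENCODE M21, GRCm38), *Pax4* has 349 codons before the stop and codon 200 is an arginine codon. The capitals mark that codon, with 5 codons of coding sequence on either side:

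Pax4 codon 200: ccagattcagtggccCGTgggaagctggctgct

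A homeodomain is encoded by 6 of the 10 genes, and its recognition helix lies in the major groove of DNA. A script found the 6 codons of the core of that helix, tryptophan, phenylalanine, any residue, asparagine, any residue and arginine, exactly 1 time in each. They are shown in capitals for 4 of the genes, within 48 bases of the longest coding transcript, and in *Pax4* the first of them is codon 217, after the changed codon:

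Pax4: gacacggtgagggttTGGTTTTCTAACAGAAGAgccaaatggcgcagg
Pax6: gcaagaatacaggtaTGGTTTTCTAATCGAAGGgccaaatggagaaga
Pdx1: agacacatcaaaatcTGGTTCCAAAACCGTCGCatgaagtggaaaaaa
Isl1: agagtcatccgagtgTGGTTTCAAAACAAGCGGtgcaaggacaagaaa

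Over these 48 bases *Pax4* shared 68.8% with *Pax6* and 39.6% each with *Pdx1* and *Isl1*. *Pdx1* and *Isl1* shared 62.5% with each other. The 4 genes that encode no homeodomain have no such core: *Mafa* is a basic leucine zipper factor, *Neurod1* a basic helix-loop-helix factor, *Insm1* a zinc finger factor and *Rfx6* a winged-helix factor.

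The libraries held 24268157 to 42679645 expected counts in the first table and 28618835 to 31887537 in the second. Levels are given as CPM, the count scaled to the TMM-normalized size of the library. A gene was called changed when its log2 fold change exceeded 0.5 in size and its Benjamini-Hochberg adjusted p was under 0.05 in edgeR's quasi-likelihood test, over the 19137 tested genes of the first table and the 20167 of the second. The insulin genes were present in every library, so that the tissue matched its label, and so were markers of acinar cells, the enzyme-secreting cells around the islets. In bulk islets fewer β cells and less RNA per β cell cannot be told apart.

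*Pax4* (ENSMUSG00000029706, chr6:28442334-28449353, minus strand) had 0 expected counts in all 17 libraries. A count of 0 allows up to 3 counts, which is 0.0724 to 0.126 CPM in the first table and 0.0907 to 0.112 CPM in the second, for counting error only. The wildtype and control islets were at 0 as well, so the counts of *Pax4* check neither the R192H label nor the deletion. The gene failed the filter on low counts and was not tested, and the tests below cover the other 9 genes, which passed it in both tables.

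Levels of different genes were compared per kilobase of the longest annotated transcript. In SCD-fed wildtype islets, *Mafa* stood first at 49.2 ± 17.3 CPM per kb (SD, n = 3), followed by *Pdx1* at 25.3 ± 6.96 and *Pax6* at 24.0 ± 1.45. *Pdx1* and *Pax6* differed by less than the spread of *Pdx1*. *Isl1* (20.0 ± 1.79), *Nkx6-1* (17.1 ± 4.57) and *Neurod1* (17.0 ± 3.12) followed and were not set apart by their spread, and *Rfx6* (12.9 ± 0.814) and *Insm1* (10.6 ± 1.61) came after them. *Nkx2-2* was lowest at 5.29 ± 1.19 CPM per kb and was last of the 9 in all 6 groups. In HFD-fed *Pax4* R192H islets, *Pdx1* (27.7 ± 3.06 CPM per kb) came before *Mafa* (26.6 ± 2.01), though by less than their spread. In the second table *Isl1* stood first, at 65.2 ± 5.16 CPM per kb in the 2 controls and 57.8 ± 0.569 in the 3 *Pax4* βiKO libraries. *Mafa* had rank 5 in the controls and rank 7 in the βiKO libraries. Levels of the 2 tables were normalized separately and are not compared by a test.

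**Figure D1:**
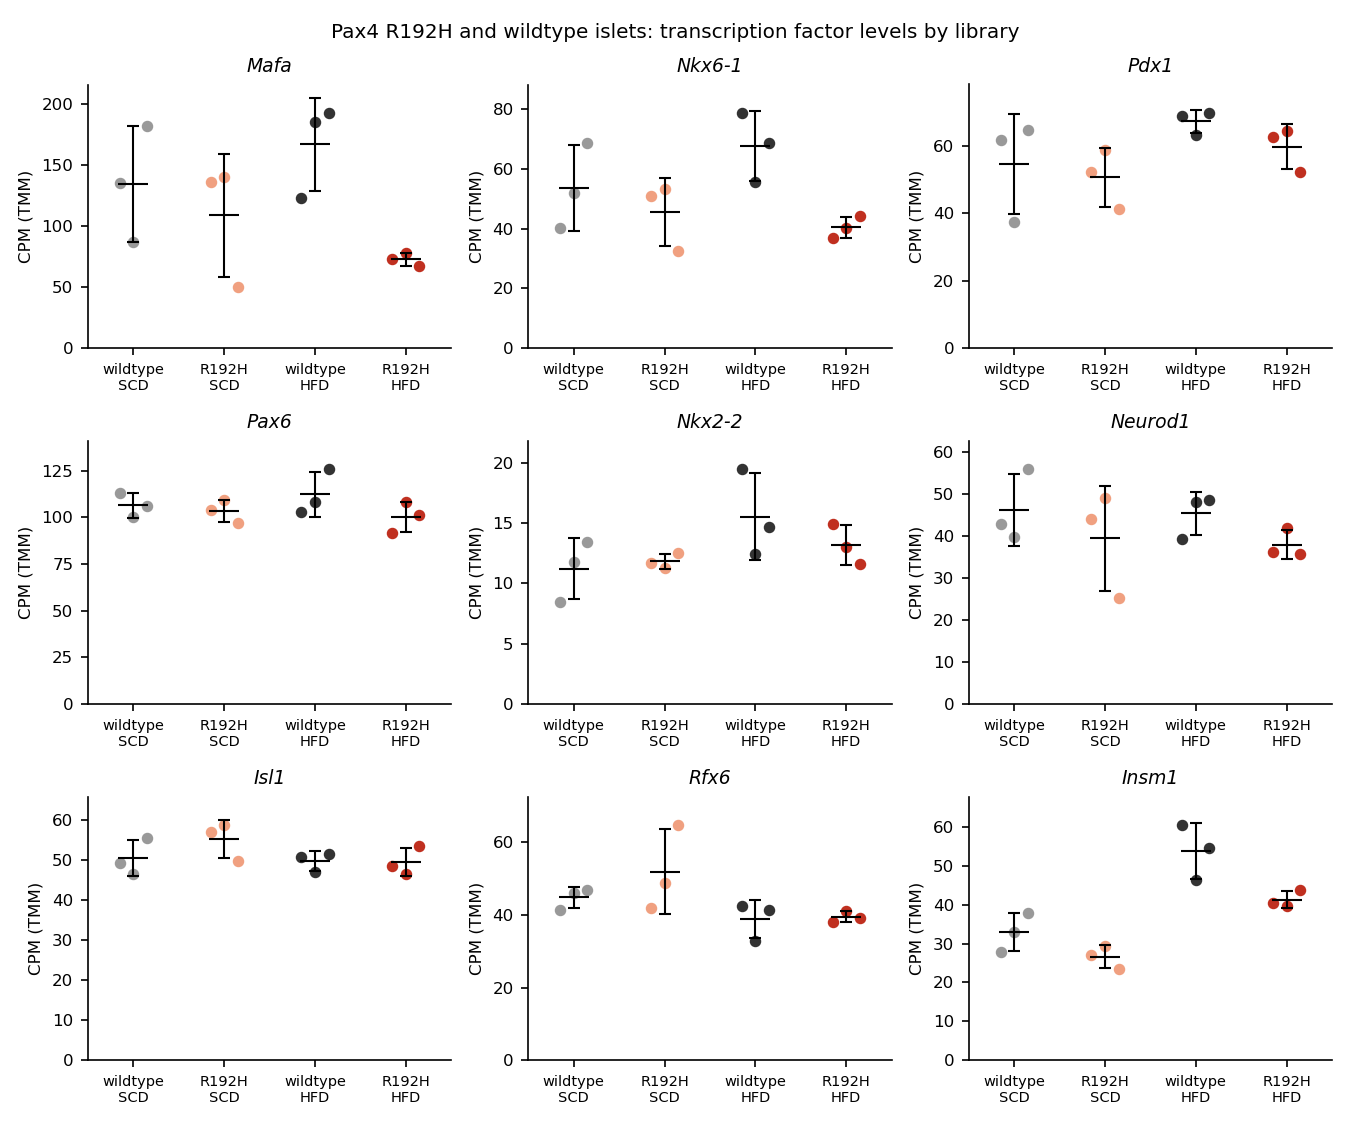
TMM-normalized CPM of the 9 expressed factors in each library of the first table (3 per group, points), with the group mean and SD (black bars) and axes starting at 0. *Mafa*, *Nkx6-1* and *Insm1* are lower in all 3 *Pax4* R192H libraries on HFD than in all 3 wildtype libraries on HFD, while *Isl1* and *Rfx6* overlap.

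The first question was whether the homozygous R192H allele changes these factors on each diet. On HFD, *Mafa* and *Nkx6-1* had the largest differences of the 9, and the other factors lay closer to wildtype. *Mafa* (ENSMUSG00000047591, chr15:75745490-75748228, minus strand) was at 123, 185 and 193 CPM in wildtype libraries on HFD and at 73.3, 78.1 and 67.2 in *Pax4* R192H libraries on HFD. Every R192H library was below every wildtype library, and the spread among the R192H libraries (SD 5.46 CPM) was smaller than among the wildtype libraries (SD 38.3). The level in R192H islets was 0.436 of that in wildtype islets (log2 fold change −1.20 ± 0.34 SE, edgeR adjusted p = 0.0824), which did not pass the threshold.

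*Nkx6-1* (ENSMUSG00000035187, chr5:101658139-101664996, minus strand) was at 78.8, 55.6 and 68.7 CPM in wildtype libraries on HFD and at 37.0, 40.1 and 44.2 in *Pax4* R192H libraries on HFD, again with no overlap. Its log2 fold change was −0.74 ± 0.21 (edgeR adjusted p = 0.0887). *Insm1* (ENSMUSG00000068154, chr2:146221921-146225020, plus strand), which helps endocrine progenitors mature and keeps β-cell genes active, was at 60.6, 46.4 and 54.6 CPM in wildtype and at 40.4, 39.7 and 43.8 in R192H libraries. Its groups did not overlap either, at −0.38 ± 0.14 on the log2 scale (edgeR adjusted p = 0.189).

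None of the 9 genes was called between the genotypes on HFD, where 2.28% of all tested genes were called and 0.820% were called lower. The count of 0 turned on the processing. Without the filter on low counts, *Mafa* and *Nkx6-1* were called (adjusted p = 1.56e-10 and 3.09e-04), DESeq2 called *Nkx6-1* (adjusted p = 0.0181, with *Mafa* at 0.0534), and scaling to 24 pan-endocrine genes called *Mafa*, *Nkx6-1* and *Insm1*. Of all genes tested in these 3 fits, 1.23%, 1.74% and 2.41% were called lower. The fit without a filter took in 39845 genes, low ones included. It called 261 genes on SCD, where the fit with the filter called 0, so its adjusted p values are to be read with care. With the acinar markers as a covariate none was called, *Mafa* being at −1.22 with an adjusted p of 0.631. In that fit 0.00% of all tested genes were called. In the first table this covariate nearly follows the HFD-fed R192H group, so its fits cannot tell the 2 apart. Leaving out 1 library at a time gave log2 fold changes of *Mafa* between −1.37 and −1.08 and of *Nkx6-1* between −0.87 and −0.62, with no call in any of them. The 3 genes without overlap had unadjusted p of 0.0034, 0.0039 and 0.018. Over all tested genes 9.89% were lower without overlap and 6.98% were lower at an unadjusted p below 0.05.

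**Figure D2:**
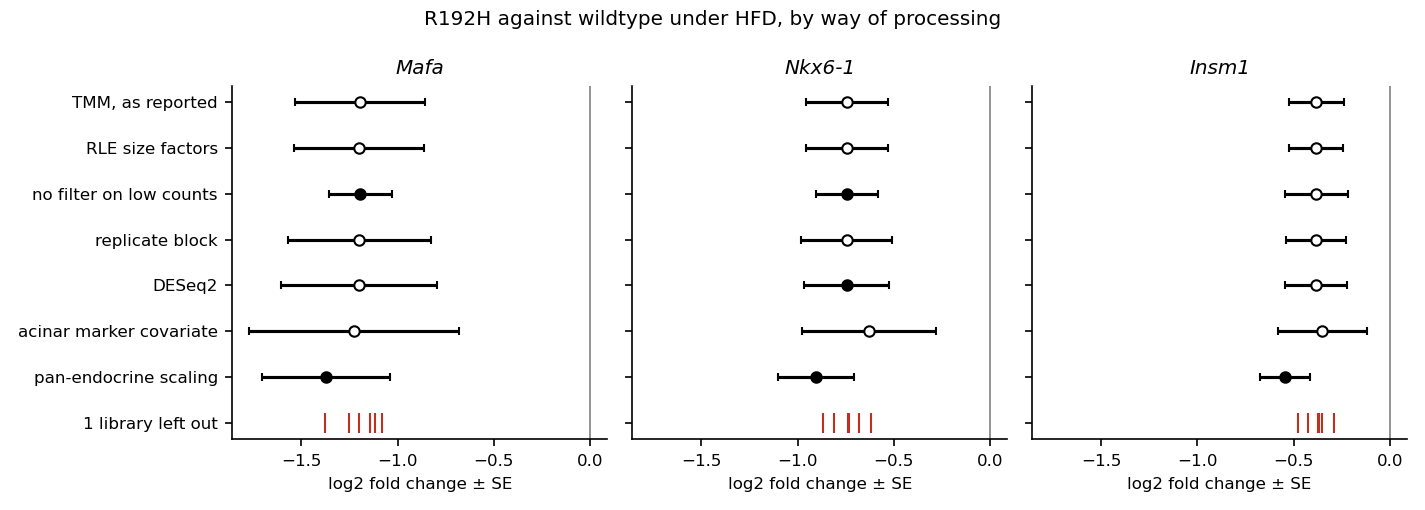
Log2 fold change ± SE of *Mafa*, *Nkx6-1* and *Insm1* of R192H against wildtype islets on HFD under each way of processing, with filled points where the gene was called and red ticks for fits with 1 library left out. All estimates are below 0, and the calls come and go with the filter, the tool and the scaling.

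The remaining 6 genes differed less on HFD, and their groups overlapped. *Pdx1* (ENSMUSG00000029644, chr5:147269959-147275848, plus strand) was at 68.7, 63.3 and 69.8 CPM in wildtype and at 62.5, 64.5 and 52.2 in R192H libraries, a log2 fold change of −0.17 ± 0.19. *Neurod1*, which activates the insulin gene through E-boxes, had a log2 fold change of −0.26 ± 0.21, and *Nkx2-2*, which represses non-β-cell genes, of −0.24 ± 0.19. *Pax6*, which keeps hormone and prohormone-processing genes active, was at −0.16 ± 0.12. *Isl1* (−0.01 ± 0.11) and *Rfx6* (0.02 ± 0.15) were closest to 0, at 46.6 to 53.5 and 38.1 to 41.1 CPM in the R192H libraries. *Isl1*, *Rfx6* and *Pax6* changed sign with the acinar covariate. In all, 8 of the 9 estimates were negative, with a median of −0.24, beside 51.4% of all tested genes and a median of −0.01.

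On SCD none of the 9 genes differed between the genotypes at the threshold, and 0.00% of all tested genes were called. DESeq2 also called none of the 9, and 23 genes in all. The groups overlapped for all 9, beside 7.83% of tested genes without overlap. *Insm1* alone had an unadjusted p below 0.05, as 3.29% of tested genes had, at 27.9, 33.1 and 37.9 CPM in wildtype and 27.1, 29.3 and 23.4 in *Pax4* R192H libraries (log2 fold change −0.31 ± 0.14, edgeR adjusted p = 1). *Mafa* was at 135, 87.2 and 182 CPM in wildtype and at 136, 140 and 50.2 in R192H libraries, and *Nkx6-1* at 40.2, 52.0 and 68.8 and at 51.0, 53.1 and 32.6. The third R192H library was the lowest of its group in both, and also in *Neurod1* at 25.3 CPM beside 44.0 and 49.2, while it was the highest in *Rfx6* at 64.9 beside 42.0 and 48.8. Without that library the log2 fold change of *Mafa* went from −0.31 to 0.03 and that of *Nkx6-1* from −0.24 to 0.01. Across all genes that library was also the farthest of its group, with a root mean square log2 difference of 0.79 from the other two beside 0.678 and 0.606. Libraries of the other groups of the first table reached 0.809. In it the 2 largest genes without a name took 46.3% of counts beside 37.9% and 37.6%, and its TMM factor of 1.08 was the lowest of the group. Immune marker sums did not overlap on SCD, at 112 to 127 CPM in R192H and 154 to 237 in wildtype islets, and their part in the estimates was not tested.

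The genotype effect on HFD was then compared with that on SCD by the interaction term. None of the 9 genes was called, where 0.131% of all tested genes were, and none had an unadjusted p below 0.05, beside 11.2% of all genes. All 9 estimates were negative, beside 50.8% of all genes, the largest being *Mafa* at −0.89 ± 0.47 (edgeR adjusted p = 0.518) and *Nkx6-1* at −0.51 ± 0.30 (0.568). Without the third R192H library on SCD the *Mafa* interaction was −1.23 (adjusted p = 0.204). The fit without a filter called *Mafa* in the interaction (−0.89, adjusted p = 0.0106), where 0.612% of all its genes were called lower. None of the other alternatives called any of the 9.

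The diet comparison asked how each genotype differed between 12 weeks on SCD and 16 weeks with 4 weeks of HFD. *Insm1* had the largest estimate of the 9 in wildtype islets, and it rose in R192H islets. In wildtype libraries it was at 27.9, 33.1 and 37.9 CPM on SCD and at 60.6, 46.4 and 54.6 on HFD, without overlap. That was a ratio of 1.63 (log2 fold change 0.71 ± 0.14), with an edgeR adjusted p of 0.0541 just above the threshold. DESeq2 and the fit without a filter called it (adjusted p = 0.00228 and 0.00153). In these 2 fits 0.834% and 0.710% of all tested genes were called higher. In *Pax4* R192H libraries *Insm1* rose from 27.1, 29.3 and 23.4 CPM to 40.4, 39.7 and 43.8, a ratio of 1.55 (log2 fold change 0.63 ± 0.14, edgeR adjusted p = 0.00935), also without overlap. The call held with each library left out (0.55 to 0.74), where 5.74% to 7.54% of all tested genes were called higher. In the same comparison 23 of 25 acinar genes were called higher (median log2 fold change 1.84), and the 6 β-cell markers summed to between 49748 and 52028 CPM on SCD and between 98853 and 109967 on HFD. Pan-endocrine sums (12636 to 14385 and 22707 to 28007 CPM) and duct sums (79.4 to 103 and 127 to 135) did not overlap either. Of 24 pan-endocrine genes 9 were called higher and 1 lower, and of 8 α-cell genes 2 higher and 1 lower, beside 9.75% and 5.91% of all tested genes. The call of *Insm1* was lost with the acinar covariate, where the estimate was 0.67 ± 0.26 (adjusted p = 0.222), and with pan-endocrine scaling, where the estimate was 0.29 (adjusted p = 0.114). The genotypes differed in this diet effect on *Insm1* by −0.07 ± 0.20 (adjusted p = 0.925).

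In the wildtype libraries no factor was called, beside 0.371% of all genes. *Insm1* alone did not overlap, beside 17.9% of all genes, and *Insm1* and *Nkx2-2* had an unadjusted p below 0.05, beside 15.2%. *Nkx2-2* was at 8.49, 11.8 and 13.4 CPM on SCD and at 19.5, 12.4 and 14.7 on HFD (log2 fold change 0.47 ± 0.19, adjusted p = 0.275). Of the marker lists of other cells, 3 immune genes fell in this wildtype comparison, *Lyz2* (−2.23 ± 0.31), *Ptprc* (−1.90 ± 0.26) and *H2-Aa* (−0.85 ± 0.17), and the 5 stromal markers had a median of −1.65 with none called. With the acinar covariate *H2-Aa* was at −0.87 ± 0.17 (adjusted p = 0.0654). The part of these markers in the estimates of the factors was not tested. In the R192H libraries 1 of 9 factors was called, where 15.7% of all tested genes were called, 9.75% higher and 5.91% lower. *Insm1* and *Rfx6* did not overlap there, beside 41.8% of all genes. *Rfx6*, a factor needed for endocrine development and for keeping β cells mature, was at 42.0, 48.8 and 64.9 CPM on SCD and at 38.1, 41.1 and 39.2 on HFD. Its log2 fold change of −0.39 ± 0.15 did not pass (edgeR adjusted p = 0.0970), and with pan-endocrine scaling it was −0.73 and called (adjusted p = 0.00393), where 20.1% of all genes were called lower. Without the third R192H library on SCD, the highest of its group, the estimate was −0.20 (adjusted p = 0.397).

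*Mafa* had opposite signs in the 2 genotypes, at 0.31 ± 0.33 in wildtype and −0.58 ± 0.33 in R192H libraries, neither called. Without the third R192H library on SCD, *Mafa* was called lower on HFD in R192H islets at −0.92 (adjusted p = 0.0367), and the fit without a filter called it too (adjusted p = 0.00594). Of all genes tested in these 2 fits, 3.30% and 4.58% were called lower. Under pan-endocrine scaling the median log2 fold change of all genes was −0.18 in the genotype comparison on HFD, −0.13 in the interaction, −0.21 in the wildtype diet comparison and −0.40 in the R192H diet comparison, where it was −0.01, −0.01, 0.01 and −0.06 with TMM. That scaling also turned the balance of calls over all genes, from 157 lower and 280 higher to 462 lower and 138 higher between the genotypes on HFD, from 32 and 39 to 543 and 44 between the wildtype diets and from 1131 and 1865 to 3845 and 737 between the R192H diets. Estimates and calls under it are to be read against these values.

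**Figure D3:**
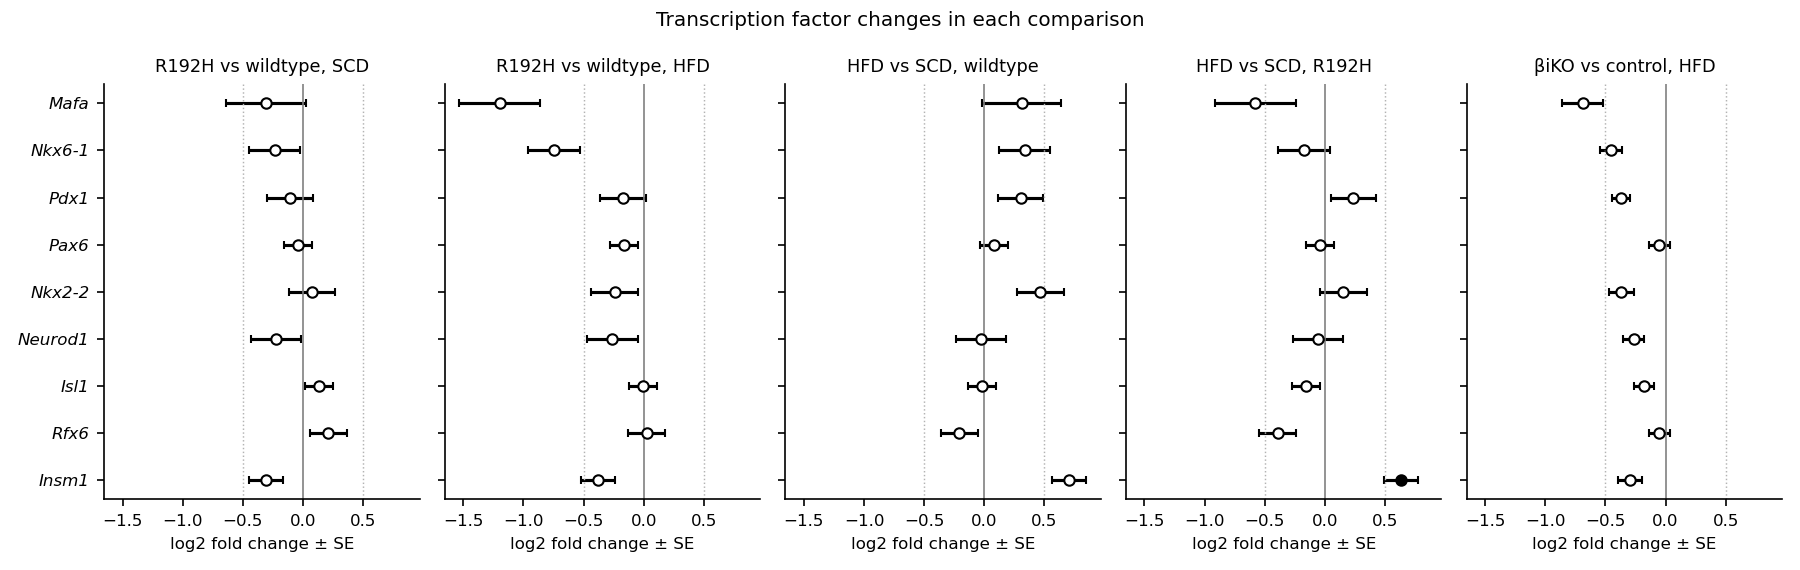
Log2 fold change ± SE of the 9 factors in 5 comparisons, filled where the gene was called and with dotted lines at ±0.5. *Insm1* between the diets in R192H islets is the only filled point, at 0.63, and all 9 points of the βiKO comparison lie below 0.

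In the second table the question was whether loss of *Pax4* in adult *Pdx1*-expressing cells changes the other factors. All 9 estimates were negative, with a median of −0.29 beside 0.01 over all genes, of which 48.5% were negative. None of the 9 was called, where 0.0893% of all tested genes were called in either direction and 0.0298% lower. In 7 of the 9 genes all 3 *Pax4* βiKO libraries were below both controls, beside 16.7% of all tested genes. In 6 of the 9 the unadjusted p was below 0.05 with a lower level, beside 6.62% of all genes. These 5 libraries are separate from the 12 of the first table.

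*Mafa* was at 54.6 and 85.3 CPM in the controls and at 46.6, 41.5 and 42.3 in the βiKO libraries (log2 fold change −0.69 ± 0.17, edgeR adjusted p = 0.226). The controls differed more from each other than the lower control did from the βiKO libraries, and without the second control the estimate was −0.33. *Nkx6-1* was at 70.2 and 69.9 CPM in the controls and at 48.7, 55.9 and 48.8 in the βiKO libraries (−0.45 ± 0.09, adjusted p = 0.163). *Pdx1* was at 96.8 and 101 CPM in the controls and at 77.3, 76.6 and 75.4 in the βiKO libraries (−0.37 ± 0.07, adjusted p = 0.163). In both genes the gap between the groups was wider than the spread within either.

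Of the factors active in most or all islet cell types, *Nkx2-2* was at 19.3 and 19.2 CPM in the controls and at 15.7, 14.7 and 14.3 in the βiKO libraries (−0.37 ± 0.10, adjusted p = 0.264). *Insm1* was at 32.4 and 30.0 against 26.6, 23.6 and 26.3 CPM (−0.29 ± 0.10), and *Neurod1* at 59.4 and 60.5 against 45.8, 52.3 and 51.6 CPM (−0.26 ± 0.09). *Isl1*, a LIM homeodomain factor of all islet endocrine cells, was at 173 and 155 against 145, 144 and 147 CPM (−0.18 ± 0.08). *Pax6* and *Rfx6* overlapped between the groups, both at −0.05 ± 0.09. DESeq2 and the fit without a filter called *Mafa* (adjusted p = 0.00581 and 6.82e-08). Of all genes tested in these 2 fits, 1.21% and 0.935% were called lower. Both fits also gave *Nkx6-1* (0.00492 and 0.00235) and *Pdx1* (0.00495 and 0.0213) adjusted p below 0.05, with log2 fold changes short of 0.5 in size.

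**Figure D4:**
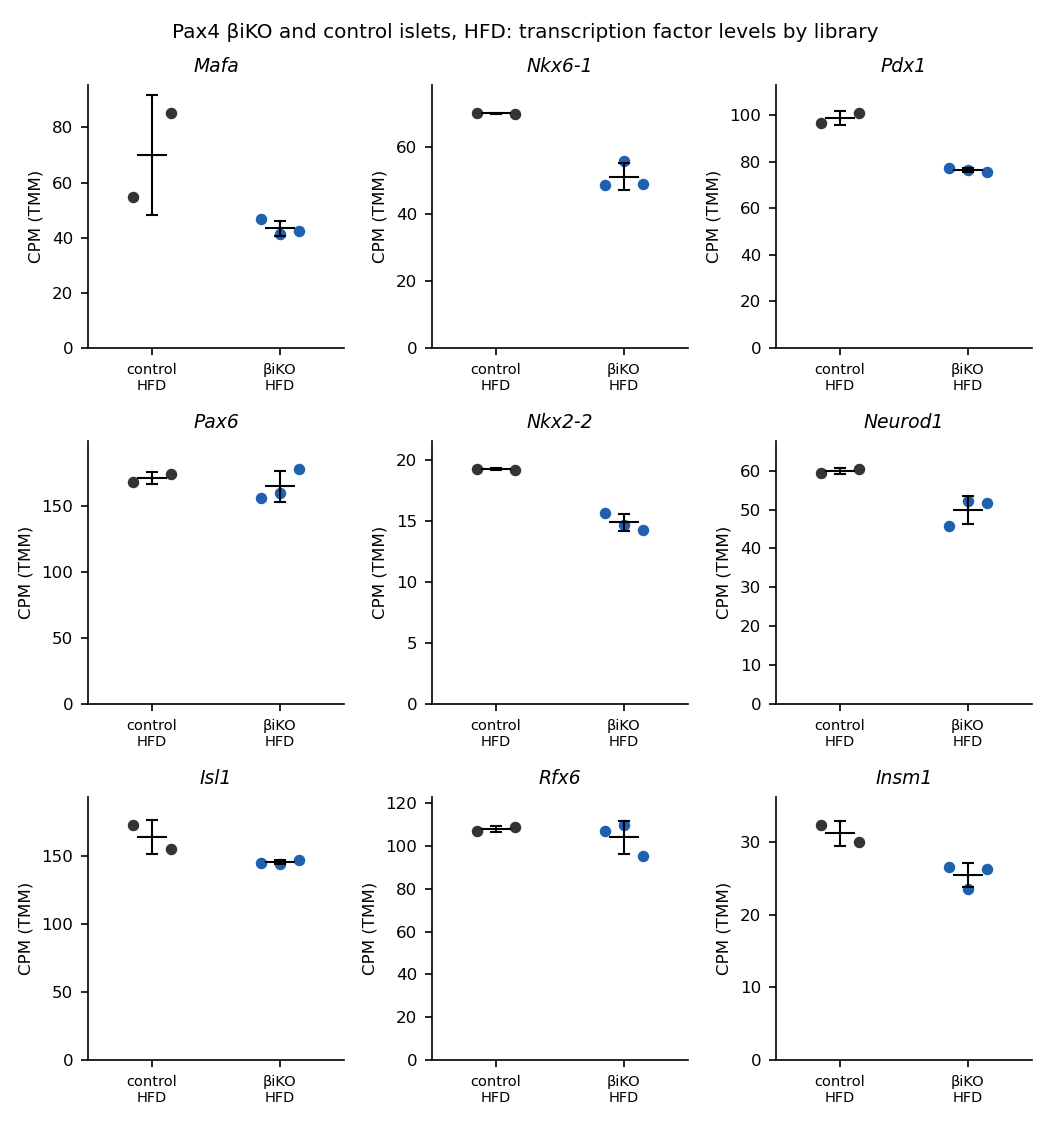
TMM-normalized CPM of the 9 expressed factors in each library of the second table (2 control and 3 *Pax4* βiKO libraries, points), with the group mean and SD (black bars) and axes starting at 0. All 3 βiKO libraries lie below both controls for every gene but *Pax6* and *Rfx6*.

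Side by side, *Mafa*, *Nkx6-1* and *Insm1* were lower without overlap in R192H islets on HFD and in βiKO islets, in tables that share no sample. Of the 18590 genes tested in both tables, 3.69% were lower without overlap in both. Their log2 fold changes were −1.20, −0.74 and −0.38 in the first table and −0.69, −0.45 and −0.29 in the second. *Pdx1*, *Nkx2-2*, *Neurod1* and *Isl1* were without overlap in the βiKO comparison alone, and whether the comparisons differ was not tested.

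The marker genes of other cells moved with the groups of the first table. The 25 acinar genes summed to 43583 to 114861 CPM in HFD-fed R192H islets and to 18888 to 29415 in HFD-fed wildtype islets, all 25 being higher in R192H islets and 6 called (median log2 fold change 1.53). On SCD their sums were 15520 to 22076 CPM in R192H and 15305 to 30226 in wildtype islets. In the second table the sums overlapped, at 19554 to 97351 CPM in βiKO and 28006 to 123130 in control islets, with all 25 estimates negative and none called (median −0.68). The mean log2 CPM of the 25 acinar genes was 9.02 to 10.4 in HFD-fed R192H libraries and at most 8.46 in the rest of the first table. The covariate and that group can thus hardly be told apart there. On HFD the covariate widened the SE of the β-cell marker *Slc2a2* from 0.19 to 0.29. A call lost in these fits does not show the part of acinar RNA. The part of acinar RNA in the differences of the factors was not tested beyond the covariate fits.

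Lists of endocrine markers did not move in 1 direction. The 24 pan-endocrine genes summed to 22707 to 28007 CPM in HFD-fed R192H and 14437 to 19918 in HFD-fed wildtype islets, and gene by gene 15 were higher and 9 lower, with a median log2 fold change of 0.22. Their mean log2 CPM did not overlap either, at 6.90 to 6.94 in R192H and 6.70 to 6.81 in wildtype islets. *Pam* (0.74 ± 0.14) and *Rab3d* (0.66 ± 0.15) rose and *Celf4* fell (−0.67 ± 0.13). These 3 calls were lost with the acinar covariate, at 0.66, 0.67 and −0.82 (adjusted p = 0.512, 0.575 and 0.387). The 6 β-cell markers summed to 98853 to 109967 CPM in R192H and 64683 to 92992 in wildtype islets on HFD. Their mean log2 CPM overlapped, at 11.6 to 11.8 and 11.6 to 11.9. *Slc2a2* was called lower (−1.28 ± 0.19), and with the acinar covariate it was at −1.08 ± 0.29 and not called. In the βiKO comparison the pan-endocrine sums were 31405 to 34256 CPM against 24012 to 25483 in controls, while the median log2 fold change of the 24 genes was 0.04, with 14 higher, 10 lower and none called. The β-cell marker sums were 131556 to 137079 and 120514 to 131350 CPM there.

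Other islet and non-islet markers also differed in places. On HFD the α-cell sums overlapped between the genotypes, at 5813 to 7942 and 5056 to 8051 CPM, and 4 of the 8 genes were higher and 4 lower in R192H islets, with a median of −0.01. *Gc* (1.52 ± 0.35) and *Ttr* (1.16 ± 0.19) were the 2 called, both higher. With the acinar covariate neither was called, at 1.40 and 1.03 (adjusted p = 0.587 and 0.392). The sums of the 2 PP-cell genes did not overlap, at 1657 to 3033 CPM in R192H and 1151 to 1602 in wildtype islets, nor did those of duct markers, at 127 to 135 and 80.6 to 99.0. The mean log2 CPM of the duct genes overlapped, 1 R192H library being below the highest wildtype library at 1.18. That of the PP-cell genes did not, at 9.59 to 10.4 in R192H and 9.09 to 9.47 in wildtype islets. The sums of δ cells (646 to 807 and 650 to 808 CPM) and of immune, endothelial and stromal markers overlapped. In the second table the α-cell sums (17432 to 18182 CPM in βiKO and 12963 to 16629 in control islets), the duct sums (258 to 319 and 208 to 210) and the endothelial sums (226 to 268 and 222 to 224) did not overlap, while the mean log2 CPM did for the duct genes (2.25 to 2.44 and 2.18 to 2.48) and the endothelial genes (5.20 to 5.47 and 5.15 to 5.21). The mean log2 CPM of the α-cell genes did not overlap there (6.71 to 6.80 and 6.49 to 6.62). The part of these markers in the differences of the factors was not tested.

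**Figure D5:**
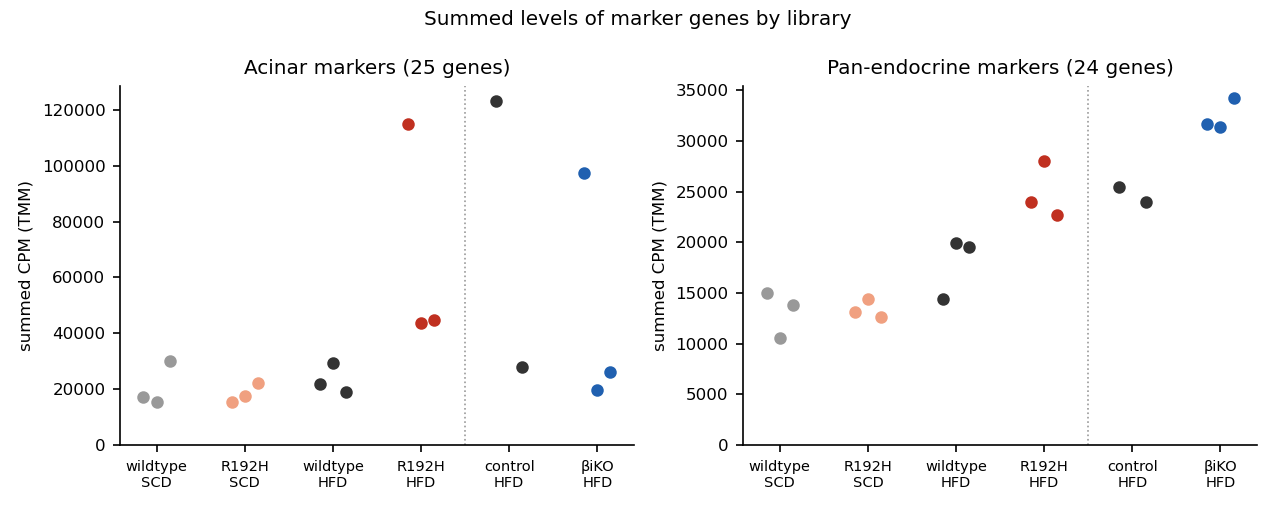
Summed TMM-normalized CPM of 25 acinar and 24 pan-endocrine marker genes in each library of the 6 groups, with the 2 separately normalized tables parted by a dotted line. All 3 *Pax4* R192H libraries on HFD lie above all wildtype libraries of the first table in both sums, and the acinar sums of the second table overlap.

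Genes known to be bound and activated by these factors in islet cells were counted from a list of 28, all tested, which includes *Sst*, the hormone of δ cells. This list, like those of partners and other factors below, was made with earlier results of these data known, so its counts are a description. On HFD 5 of the 28 were called lower in R192H than in wildtype islets and none higher, beside 0.820% and 1.46% of all tested genes. Their median was −0.58 beside −0.01, with 20 lower and 8 higher. At an unadjusted p below 0.05 there were 15 lower and 4 higher of the 28, beside 6.98% and 8.91% of all tested genes. *Trpm5*, a cation channel of insulin secretion, fell by 1.65 ± 0.24 on the log2 scale (edgeR adjusted p = 0.00530), and *Slc2a2*, the glucose transporter GLUT2, fell by 1.28 ± 0.19 (adjusted p = 0.00588). *Glp1r*, the receptor of the incretin GLP-1, fell by 0.69 ± 0.15 (adjusted p = 0.0357), and *Gjd2*, which encodes the gap junction protein connexin 36, fell by 0.67 ± 0.16 (adjusted p = 0.0449). All 5 calls were lost with the acinar covariate, where *Trpm5* was at −1.16 ± 0.35 (adjusted p = 0.501), *Slc2a2* at −1.08 ± 0.29 (0.407), *Glp1r* at −0.68 ± 0.25 (0.584) and *Gjd2* at −0.39 ± 0.23 (0.697). In the βiKO islets *Trpm5* was the 1 gene of the 28 that was called, and it fell by 1.14 ± 0.09 (adjusted p = 0.00732), while *Slc2a2* was at −0.76 ± 0.11 (adjusted p = 0.0924). Between the diets, 5 of the 28 were called higher and 10 lower in R192H islets, beside 9.75% and 5.91% of all genes. None was called in wildtype islets, where 0.371% of all genes were. *Ins2* and *Ins1* rose (1.17 ± 0.24 and 1.01 ± 0.24), and *Slc2a2* fell by 1.34 ± 0.19 and *Trpm5* fell by 1.43 ± 0.24. With the acinar covariate none of these 15 calls was left, *Ins2* being at 0.94, *Ins1* at 1.39, *Slc2a2* at −1.11 and *Trpm5* at −0.87. In the βiKO comparison the call of *Trpm5* remained with it (−1.16, adjusted p = 0.0222). On SCD none of the 28 was called between the genotypes.

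Cofactors and dimer partners were counted from a list of 20, of which 19 were tested. On HFD none was called between the genotypes, and all 19 estimates were negative (median −0.29), beside 51.4% of all genes (median −0.01). *Meis2*, a homeodomain partner of the PBX proteins, was at −0.60 ± 0.15 (adjusted p = 0.0554), *Rcor2*, of the CoREST corepressor, at −1.15 ± 0.34 (0.101) and the corepressor *Tle3* at −0.78 ± 0.26 (0.132). In the βiKO islets 18 of 19 were negative, beside 48.5% of all genes, and none was called (median −0.28). Between the diets 4 of 19 fell in R192H islets, beside 5.91% of all genes: *Rcor2* (−1.47 ± 0.34), *Meis2* (−0.87 ± 0.15), *Tcf12*, a partner of NEUROD1 (−0.74 ± 0.18), and the DNA methyltransferase *Dnmt3a* (−0.61 ± 0.18). Of the acinar markers 23 of 25 rose in the same comparison, and with the acinar covariate none of the 4 was called, at −0.96, −0.79, −0.89 and −0.87 (adjusted p = 0.439, 0.184, 0.190 and 0.196). None of the list was called in the wildtype diet comparison, nor between the genotypes on SCD.

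Of 28 other islet transcription factors, 24 were tested in the first table and 25 in the second. None was called between the genotypes on HFD or SCD, between the diets in wildtype islets or in the βiKO comparison. On HFD 18 of 24 were negative (median −0.11), beside the same 51.4%. *Tshz1* was at −0.44 ± 0.15 (adjusted p = 0.164) and *Mlxipl*, the glucose-responsive factor ChREBP, at −0.49 ± 0.17 (adjusted p = 0.170). *Mlxipl* fell by 0.55 ± 0.17 between the diets in R192H islets (adjusted p = 0.0448), a call lost with the acinar covariate (−0.73, adjusted p = 0.264), and was at −0.50 ± 0.12 in the βiKO comparison (adjusted p = 0.223).

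The genes whose levels ran closest to *Mafa* and *Nkx6-1* were found from log2 CPM centred over the 12 libraries of the first table. For *Mafa*, whose own root mean square deviation was 0.62, they were *Slc35d3*, *9130023H24Rik* and *Dcaf12l1*, at root mean square differences of 0.31, 0.34 and 0.34. For *Nkx6-1* (0.37) they were *Vstm2l*, *Ptpru* and *Tmem30b*, at 0.16, 0.17 and 0.19. The points share library and depth, and the likeness is a description.

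Of the 10 genes, 4 have an annotated neighbour on the same stretch of chromosome. *Pax6* overlaps the antisense *Pax6os1*, at 6.29 to 11.3 CPM in the first table, and *Pdx1* the antisense *Plut*, at 6.51 to 15.9 CPM, in both cases without shared exons. *Nkx2-2* shares exons with the antisense *Nkx2-2os*, at 0.573 to 2.02 CPM, and *Neurod1* shares exons with *Cerkl* on the same strand, at 9.65 to 17.9 CPM, and with *Gm26755* on the opposite strand. *6430503K07Rik* lies antisense within *Nkx2-2* without shared exons. Reads of *Neurod1* and *Cerkl* may thus have been divided between them, and those of the opposite-strand pairs too unless the counting used strand. The libraries were made with a stranded kit, and the strand setting of the counting is not given in the sources used here. The positions of the remaining genes are chr2:105668900-105697364 (*Pax6*, plus strand), chr2:147177546-147194243 (*Nkx2-2*, minus strand), chr2:79452521-79456751 (*Neurod1*, minus strand), chr13:116298281-116309689 (*Isl1*, minus strand) and chr10:51677756-51730432 (*Rfx6*, plus strand), all in GRCm38.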

How the data were processed

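Bulk islet RNA of 17 libraries, made with a stranded kit, was analysed, grouped by sample titles. Reads had been mapped by the authors (STAR v2.7.1, mm10) and summed to genes through RSEM v1.3.3 and tximport. What was deposited are unscaled expected counts, rounded here. Symbols and positions came from GENCODE M21. Each table was fitted alone with edgeR v4.0.16 under R v4.3.3, with TMM, filterByExpr with a minimum count of 10, 1 coefficient per group, the quasi-likelihood F-test and Benjamini-Hochberg adjustment over all tested genes. The SE is the log2 fold change over the square root of F, and log2 CPM used a prior count of 2. Alternatives were RLE size factors, no filter, the replicate number as a block, DESeq2 v1.42.0, the mean acinar marker level as a covariate, pan-endocrine scaling and leaving out each library. Of the first table's counts, 2 unnamed genes took 36.2% to 53.3%, and TMM factors were 0.692 to 1.30.

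The genes and lists were chosen with earlier results of these data known. From the lists of other factors, partners and targets at most 4 genes per comparison were named, the called ones of largest change and then those of smallest p. The tests were also run on simulated counts with known changes, and the outcome is not given here. Some items are not reported here.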

Additional observations from a re-analysis of the deposited data

How the results depend on the processing

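No estimate changed sign with RLE size factors, no filter or DESeq2, but calls did. Without a filter 2, 1, 1, 2 and 1 factors were called in the genotype comparison on HFD, the interaction, the wildtype and R192H diet comparisons and the βiKO comparison, and DESeq2 called 1, 0, 1, 1 and 1. Over all genes, on SCD, on HFD, in the interaction, between the diets in wildtype and in R192H islets and in the βiKO comparison, no filter called 261, 1279, 708, 924, 3819 and 697, and DESeq2 called 23, 918, 314, 540, 3515 and 251, against 0, 437, 25, 71, 2996 and 18. No filter meant 39845 tested genes in the first table and 38704 in the second, and DESeq2 gave adjusted p to between 12441 and 21984. The acinar covariate left 0 factors called in any comparison and 0 genes on HFD, 0 in the interaction, 42 in the wildtype diet and 103 in the R192H diet comparison. Where HFD-fed R192H islets are compared, it nearly follows that group, and these counts cannot separate the 2. Pan-endocrine scaling called 3 factors and 600 genes (3.14%) on HFD, and 587 and 4582 genes between the diets. The causes were not tested.

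Estimates that changed sign were, with the acinar covariate on HFD, *Rfx6* (−0.011), *Pax6* (0.028) and *Isl1* (0.021), in the interaction *Pax6* (0.081) and *Neurod1* (0.037), and between the diets in R192H islets *Pax6* (0.18), *Nkx2-2* (−0.18) and *Neurod1* (0.016). With pan-endocrine scaling they were *Rfx6* on HFD (−0.14), *Pax6* between the wildtype diets (−0.14), and *Nkx2-2* (−0.19) and *Pdx1* (−0.10) between the R192H diets.

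With 1 library left out, signs changed in SCD for *Pax6* (−0.083 to 0.012), *Nkx2-2* (−0.085 to 0.25), *Pdx1* (−0.32 to 0.061), *Nkx6-1* (−0.40 to 0.011), *Neurod1* (−0.41 to 0.0094) and *Mafa* (−0.54 to 0.034). On HFD they changed for *Isl1* (−0.068 to 0.034) and *Rfx6* (−0.084 to 0.091), and in the interaction for *Neurod1* (−0.27 to 0.18), *Insm1* (−0.19 to 0.053), *Pdx1* (−0.21 to 0.15) and *Rfx6* (−0.30 to 0.006). Between the diets they changed for *Neurod1* (−0.13 to 0.16), *Isl1* (−0.071 to 0.077) and *Pax6* (−0.0081 to 0.14) in wildtype and for *Neurod1* (−0.30 to 0.16) and *Pax6* (−0.097 to 0.030) in R192H islets, and in the βiKO comparison for *Rfx6* (−0.096 to 0.0077). The factors called between the R192H diets were 1 to 2, and 0 elsewhere. Genes called were 93 to 498 on HFD, 0 to 101 in the interaction, 5 to 125 and 1706 to 2248 between the wildtype and R192H diets and 2 to 28 in the βiKO comparison, so that the counts over all genes depend on single libraries. A control left alone is assumed to vary like the βiKO libraries.

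In the first table same-numbered samples correlated between −0.296 and 0.193 and differently numbered ones between −0.309 and 0.402. The replicate number thus showed no pairing there. In the second table same-numbered samples were at 0.073 and 0.038. With 2 controls the deviations mirror each other, so these values cannot decide on a pairing. With the replicate block no factor gained or lost a call, *Rfx6* in the βiKO comparison turned to 0.0068, and 147, 0, 22, 2347 and 88 genes were called on HFD, in the interaction, in the wildtype and R192H diets and in the βiKO comparison.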
